A study of Mus musculus with 4 samples.

Results

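Open chromatin was measured in the peaks whose midpoint lay within 100 kb of the start of 19 AP-1 and immediate early genes, namely Jun, Junb, Jund, Fos, Fosb, Fosl1, Fosl2, Atf3, Batf, Maff, Egr1, Egr2, Ier2, Ier3, Ier5, Nr4a1, Nr4a3, Klf4 and Klf6. The rule took 658 of 125793 peaks called in the library labelled CKO and 602 of 116075 peaks called in the control library. Merged by overlap, they made 711 regions, of which 544 held a peak of both libraries (of 97973 such shared regions in all), 112 a peak of the CKO-labelled library alone and 55 a peak of the control library alone. Members were chosen by position, with no measured value.

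The 2 libraries are joint profiles of RNA and open chromatin from the same nuclei, in which RNA molecules (UMIs) and transposition events in peaks are both counted. The CKO mice were SftpcCreERT2; Rosa26mTmG; IPF/F, with a floxed prostaglandin I2 receptor gene (Ptgir), and the control mice were SftpcCreERT2; Rosa26mTmG. Both groups were male, carried the same Cre and reporter, had lung injury from bleomycin, which damages alveolar epithelium, and were sampled on day 8, when GFP+ cells were sorted from lung as alveolar type 2 (AT2) cells. The Cre is driven from Sftpc, the surfactant protein C gene, so recombination is limited to cells that use it. Each genotype is 1 library, the labels do not say how many mice it holds, and so differences are described without a test or a replicate. The 95% intervals given take in counting error and nothing else.

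The libraries held 10925 barcodes labelled CKO and 13569 control barcodes, with 37365247 and 47307986 peak counts. After filtering, 3883 CKO-labelled and 2173 control nuclei were kept, with medians of 3650 and 2705 peak counts, and 193 barcodes occurred in both libraries (17 of them among kept nuclei). Ptgir had 10 UMIs over all barcodes of the CKO-labelled library and 2 in the control library, too few to check the label, so each direction below rests on the label. Despite the sort, 1326 of the CKO-labelled nuclei and 103 of the control nuclei clustered as leukocytes, 491 and 2 of them as neutrophils. Alveolar epithelial nuclei numbered 2315 CKO-labelled and 2049 control, and expressed all 11 AT2 markers (11115 and 8199 CPM summed). In leukocyte nuclei the same markers, which include Cd74, also expressed by leukocytes, summed to 6804 CPM labelled CKO and 7253 CPM in control, and their part in the leukocyte values below was not tested. The 6 neutrophil markers summed to 107 CPM in CKO-labelled alveolar nuclei (710 UMIs, none of the 6 at 0) and 0.504 CPM in control ones (3 UMIs, 4 of the 6 at 0), and their part in the results below was not tested. AT2-like nuclei (1263 and 1497) lay mostly in cluster 0 in the CKO-labelled library (1214) and in clusters 2 and 3 in the control library (1342). A cluster that scored highest for alveolar type 1 (AT1) markers held 0 of them and 1 transitional marker, Itgb6, among its top 10 genes by fold, so it is left without a name and called cluster 4 (430 and 180 nuclei). Transitional-like nuclei, named for their score on markers of cells between AT2 and AT1, numbered 622 and 372. That name rests on a score of 0.57, beside 0.52 for basal markers, while cluster 4 scored 1.12 for transitional markers. No transitional marker was among the top 10 genes of the transitional-like cluster. Likewise no AT2 marker was among those of clusters 2 and 3.

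AP-1 is a family of dimeric transcription factors built from Jun, Fos, Atf and Maf family proteins, which bind a short palindrome at enhancers and promoters. Some AP-1 genes, and Egr, Ier, Nr4a and some Klf genes, are immediate early genes. The promoters of such genes are often open before a stimulus. Serum, stress or injury signals raise their transcription within minutes without new protein synthesis. In the injured lung epithelium AP-1 is known as a stress-responsive factor, and JUN is a substrate of JNK.

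For the sequences, gene starts were taken from RefSeq (GRCm38.p6), which matched 16 of the 19 genes. This gave 22 promoter entries of 300 bases, from 250 bases before to 50 after each start. Of those starts, 17 of 22 lay inside a shared region. The choice of members, the distances and the promoter regions rest instead on the starts of the gene rows, apart from the Atf3 promoter. The promoters of the genes were rich in G and C: their median GC content was 63.8% (range 46.7% to 74.3%), against 52.7% over 27025 RefSeq promoters, with a median of 22 CpGs against 7. Both strands were searched for 7 motifs, chosen with results of these data known. These were the full cAMP response element TGACGTCA, its first 6 letters TGACGT, the AP-1 site TGANTCA, the AP-1-like element TGACATCA known from the Jun promoter, the CArG box of serum response factor, the GC box GGGCGG and the TATA box TATAAA. The shorter response element lies within the longer one, so each match to the longer also counts for the shorter. A gene was counted if any of its entries matched (3 entries for Maff, 5 for Egr2). The share over all promoters took 1 entry per gene, so the 2 measures are not alike. Every match at Maff, and the TGACGT and CArG box at Egr2, lay outside the gene's first entry. GGGCGG was found at 14 of the 16 genes, where 35.9% of all promoters hold it. TGACGT was found at 6 genes (Fos, Atf3, Batf, Maff, Egr2 and Nr4a3; 7.64% of all promoters), and TGACATCA at 3 (Jun, Klf6 and 1 Maff entry; 3.76%). TGACGTCA was found at Maff (1.88%) and the CArG box at Egr2 (1.57%). TATAAA was found at Fos and Junb (14.2%), and TGANTCA at none of these windows (7.93%). These matches are a description of the letters in the windows.

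Shown here are the promoters with the 2 largest differences below 0 between the libraries (Maff and Ier5), those of Jun and Klf4, which come next among the lower ones with a RefSeq entry in a shared region, and those of Fos, Fosb and Egr2, whose intervals included 0. Each runs 5′ to 3′ on the gene's strand, and capitals mark matches to any of the 7 motifs on either strand. The windows are Jun at chr4:95052173-95052472 (minus strand), Fos at chr12:85473640-85473939 (plus), Fosb at chr7:19309996-19310295 (minus), Maff at chr15:79347270-79347569 (plus), Egr2 at chr10:67537619-67537918 (plus), Ier5 at chr1:155099587-155099886 (minus) and Klf4 at chr4:55532426-55532725 (minus).
Jun: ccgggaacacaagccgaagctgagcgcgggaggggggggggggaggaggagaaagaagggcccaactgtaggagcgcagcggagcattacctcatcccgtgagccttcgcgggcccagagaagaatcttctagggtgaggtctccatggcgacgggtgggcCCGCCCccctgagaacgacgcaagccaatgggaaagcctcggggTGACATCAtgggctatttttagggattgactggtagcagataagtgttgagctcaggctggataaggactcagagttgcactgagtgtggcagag
Fos: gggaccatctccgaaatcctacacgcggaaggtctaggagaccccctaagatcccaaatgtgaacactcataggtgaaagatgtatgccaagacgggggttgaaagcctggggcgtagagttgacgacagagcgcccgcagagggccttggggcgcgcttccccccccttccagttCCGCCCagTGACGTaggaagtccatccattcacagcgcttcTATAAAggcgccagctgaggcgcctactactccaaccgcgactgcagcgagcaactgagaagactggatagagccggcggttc
Fosb: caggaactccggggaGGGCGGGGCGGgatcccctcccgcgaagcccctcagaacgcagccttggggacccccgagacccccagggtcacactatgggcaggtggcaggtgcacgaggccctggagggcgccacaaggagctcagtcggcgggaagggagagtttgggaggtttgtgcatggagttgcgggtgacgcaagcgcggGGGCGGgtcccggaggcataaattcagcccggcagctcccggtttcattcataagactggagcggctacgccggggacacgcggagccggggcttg
Maff: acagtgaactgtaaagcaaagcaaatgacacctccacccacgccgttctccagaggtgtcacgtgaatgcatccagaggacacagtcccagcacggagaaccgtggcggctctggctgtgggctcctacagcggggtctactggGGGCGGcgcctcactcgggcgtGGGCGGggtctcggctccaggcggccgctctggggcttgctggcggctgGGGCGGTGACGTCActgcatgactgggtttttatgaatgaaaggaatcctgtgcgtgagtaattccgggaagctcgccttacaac
Egr2: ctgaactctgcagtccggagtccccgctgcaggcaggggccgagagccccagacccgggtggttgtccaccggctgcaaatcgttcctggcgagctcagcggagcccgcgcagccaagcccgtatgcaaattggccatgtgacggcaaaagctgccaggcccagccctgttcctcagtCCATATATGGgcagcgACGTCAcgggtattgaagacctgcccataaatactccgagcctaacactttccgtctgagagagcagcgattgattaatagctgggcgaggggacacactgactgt
Ier5: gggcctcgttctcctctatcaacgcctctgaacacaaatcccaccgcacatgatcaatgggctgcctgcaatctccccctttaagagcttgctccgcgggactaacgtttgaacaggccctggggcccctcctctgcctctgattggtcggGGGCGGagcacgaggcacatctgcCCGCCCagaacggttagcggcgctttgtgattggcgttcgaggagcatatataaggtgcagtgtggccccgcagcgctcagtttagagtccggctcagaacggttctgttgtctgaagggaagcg
Klf4: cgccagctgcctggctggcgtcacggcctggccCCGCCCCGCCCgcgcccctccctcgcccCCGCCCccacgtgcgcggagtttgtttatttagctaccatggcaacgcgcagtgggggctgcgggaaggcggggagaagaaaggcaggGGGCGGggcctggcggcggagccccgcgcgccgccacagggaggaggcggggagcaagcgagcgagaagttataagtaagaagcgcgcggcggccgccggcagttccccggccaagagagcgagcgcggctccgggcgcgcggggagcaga
The TGACATCA of Jun lies at bases -45 to -38 from the start, the TGACGTCA of Maff at bases -29 to -22, the TGACGT of Fos at bases -66 to -61, and the CArG box of Egr2 at bases -72 to -63.

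At the genes' own promoters, taken as the strongest shared region within 1000 bases of the start, most levels in alveolar nuclei were somewhat lower in the CKO-labelled library, and no promoter differed by 1.5-fold. Levels are in CPM, the region's counts scaled to the class's total in all shared regions, and the threshold of 1.5-fold needs at least 50 counts over both libraries. Of 18 promoters, 13 had a ratio of CKO over control under 1, the median log2 ratio was -0.12, the range -0.52 to 0.14, and 0 were past 1.5-fold. Over all 16376 regions at gene starts, 7.82% were past 1.5-fold higher and 9.01% past it lower, with a median log2 ratio of -0.09. Summed over the 18 promoters, the level was 954 CPM in the CKO-labelled library and 1131 CPM in the control library (log2 ratio -0.25, -0.30 to -0.19). Strong regions weigh most in this sum, so it is not alike to a median over single regions. All gene-start regions together held 48.1% of counts in CKO-labelled and 53.4% in control alveolar nuclei. Atf3 has no peak within 1000 bases of the start that its gene row gives and is described at its RefSeq start.

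Among the Jun family, whose members form dimers with each other and with Fos proteins, the Jun promoter (chr4:95051889-95052805) had 92.1 CPM in CKO-labelled and 128 CPM in control nuclei, from 1000 and 1176 counts. The log2 ratio was -0.48 (-0.65 to -0.30). Jund, the most evenly expressed of the family (chr8:70698361-70699290), had 96.5 and 131 CPM (log2 ratio -0.45, -0.62 to -0.28). Both were thus lower in the CKO-labelled library by more than counting error. Junb (chr8:84979635-84980565) had 54.6 and 58.8 CPM (-0.11, -0.35 to 0.14), and the weaker region that spans the Junb start had 45.4 and 50.5 CPM (-0.15, -0.42 to 0.11). The 2 Junb regions thus lay within counting error of no difference.

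Among the Fos family, which needs a Jun partner to bind DNA, no promoter differed by more than counting error. Fos itself (chr12:85473370-85474326) had 58.2 CPM in CKO-labelled and 67.4 CPM in control nuclei (log2 ratio -0.21, -0.44 to 0.02). Fosb (chr7:19309839-19310744) had 45.8 and 43.1 CPM (0.09, -0.19 to 0.36), Fosl1 26.8 and 27.4 CPM (-0.03, -0.38 to 0.33), and Fosl2 66.9 and 69.0 CPM (-0.05, -0.27 to 0.18). A separate region within the Fosb gene, 1.44 kb downstream of its start (chr7:19308164-19309049), went the other way from the Jun promoters, with 34.1 CPM in CKO-labelled and 19.2 CPM in control nuclei (log2 ratio 0.83, 0.45 to 1.21). In the CKO-labelled library its level was 44.2 CPM in leukocytes.

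Of the other bZIP genes, Maff, a small Maf protein without an activation domain, had the lowest promoter ratio. Its promoter (chr15:79347176-79347864) had 36.6 CPM in CKO-labelled and 52.7 CPM in control nuclei, from 398 and 483 counts (log2 ratio -0.52, -0.80 to -0.25). Atf3, a stress-induced factor (chr1:191182970-191183902), had the strongest promoter region in the CKO-labelled library, at 100 CPM, and 111 CPM in the control library (-0.15, -0.33 to 0.02). Batf, an AP-1 factor best known in lymphocytes, was nearly closed in alveolar nuclei, at 3.87 and 3.82 CPM from 42 and 35 counts (0.02, -0.97 to 1.02).

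Among the zinc-finger and other immediate early genes, Egr1 had 85.2 CPM in CKO-labelled and 111 CPM in control nuclei (log2 ratio -0.38, -0.56 to -0.19), while Egr2 had 43.0 and 38.9 CPM (0.14, -0.14 to 0.43). Ier5, which is induced by stress and growth signals (chr1:155099194-155100075), had 37.3 and 52.3 CPM (-0.49, -0.77 to -0.21). Ier2 had 36.9 CPM in both libraries (0.00, -0.30 to 0.31), and Ier3, a regulator of cell survival, 37.2 and 36.0 CPM (0.05, -0.26 to 0.35). Only Ier5 of the 3 Ier promoters was lower by more than counting error. The nuclear receptor gene Nr4a1 had 40.0 CPM in CKO-labelled and 43.9 CPM in control nuclei (-0.14, -0.42 to 0.15), and the region at its RefSeq start 63.1 and 66.5 CPM (-0.08). Its relative Nr4a3 had 55.4 CPM in CKO-labelled and 65.5 CPM in control nuclei (-0.24, -0.48 to -0.01). Klf4 (chr4:55532222-55533107), a zinc-finger factor of epithelial cells, had 66.9 and 89.6 CPM (-0.42, -0.63 to -0.21), and its relative Klf6 70.5 and 75.5 CPM (-0.10, -0.31 to 0.12).

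**Figure D1:**
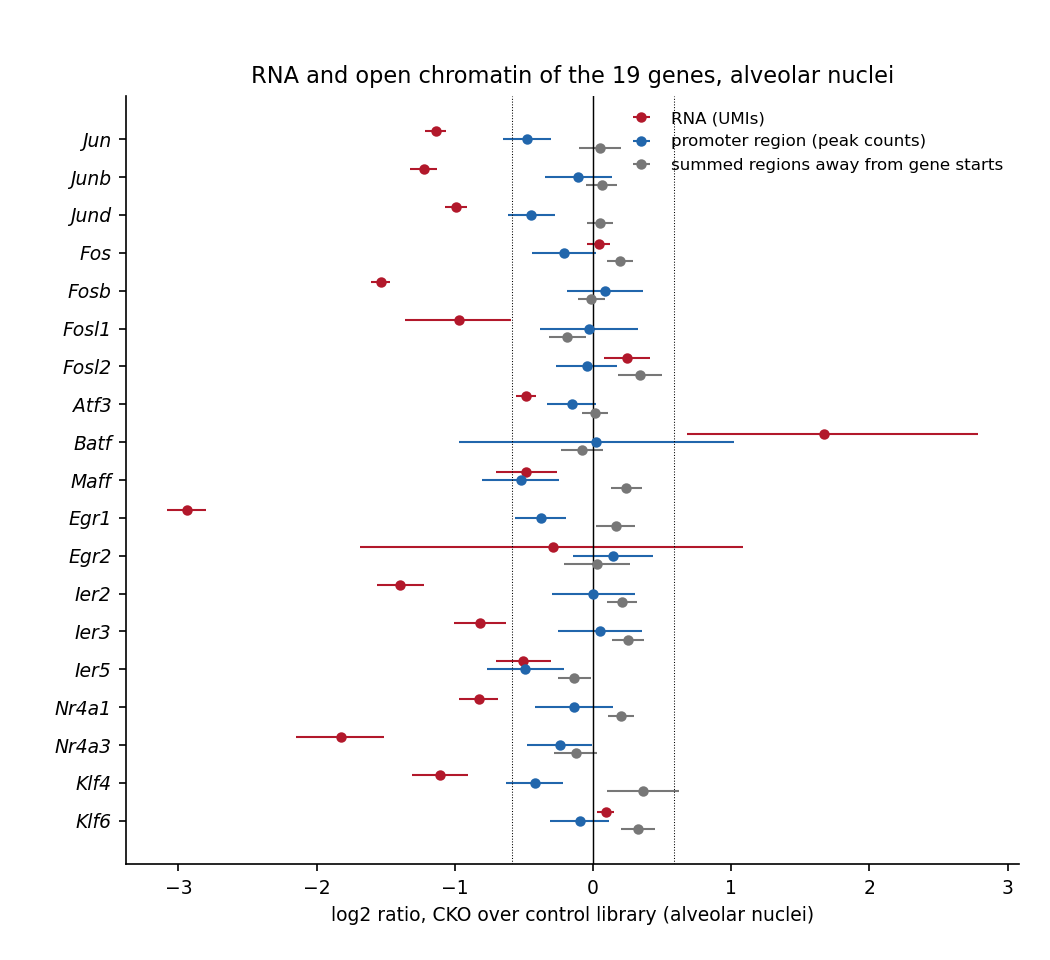
Log2 ratio of CKO over control in alveolar nuclei (x axis) for the RNA, the promoter region and the sum of regions away from gene starts of each of the 19 genes (y axis), with 95% counting intervals. RNA ratios range from -2.94 to 1.67, while the promoter ratios of 18 genes stay between -0.52 and 0.14.

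In pooled alveolar nuclei, the RNA of the same genes differed far more than their promoters. Of the 18 genes with a promoter region, 12 were past 1.5-fold in RNA in alveolar nuclei (11 of them lower in the CKO-labelled library) and 0 in promoter level, and the ratio had the same sign in RNA and promoter for 11 of 18. With at least 100 UMIs, it was 11 of 16 genes, all lower. Of all genes with that many UMIs, 38.7% were past 1.5-fold higher and 4.23% lower, and their median log2 ratio was 0.44. Egr1 RNA was at 68.7 CPM in CKO-labelled and 528 CPM in control nuclei (log2 ratio -2.94), beside the promoter log2 ratio of -0.38. Fosb RNA was at 390 and 1132 CPM (-1.54), beside 0.09 at its promoter. The largest RNA differences thus stood at promoters with small or no differences. Nr4a3 RNA was at 16.7 and 59.3 CPM (-1.82), beside -0.24, Jun RNA at 323 and 711 CPM (-1.14), beside -0.48, and Ier2 RNA at 61.8 and 162 CPM (-1.39), beside 0.00. Fos and Klf6, whose RNA levels were 379 and 368 CPM and 666 and 625 CPM (0.04 and 0.09), had promoter ratios of -0.21 and -0.10. Batf RNA had 39 UMIs in CKO-labelled and 11 in control alveolar nuclei. By class, with no minimum count, RNA and promoters were past 1.5-fold at 14 and 1 of 18 genes in AT2-like nuclei. It was 4 and 3 of 17 in transitional-like nuclei, 7 and 4 of 17 in cluster 4, and 11 and 4 of 18 in leukocytes. The genes' median RNA log2 ratios were -1.20, -0.38, -0.43 and -0.53 in that order. The part of class makeup in the pooled ratios was not tested.

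Strong regions at gene starts were lower in the CKO-labelled library across the genome, and the 19 genes' promoters lay within that pattern. Over all regions at gene starts, the median log2 ratio was 0.13 at 50 to 200 counts, -0.04 at 200 to 500, -0.11 at 500 to 1000 and -0.23 at 1000 counts or more. Each promoter, with the Atf3 region included, was set beside the gene-start regions of like strength (total counts within 1.25-fold, 388 to 3509 regions). Of the 19, 9 lay below the median of their like, 10 above it, and 0 outside the 5th to 95th percentile. Jun, at -0.48, stood beside a median of -0.35 (5th to 95th percentile -0.69 to 0.01), with 26.9% of like regions lower. Jund, at -0.45, stood beside -0.36, with 34.0% lower, and Egr1, at -0.38, beside -0.31, with 38.7% lower. Those 3 were thus close to other strong gene starts, while Atf3, at -0.15, stood beside -0.34, with 78.7% of like regions lower. Maff and Ier5 stood lowest, with 10.5% and 12.3% of like regions lower, and Egr2 and Fosb highest, with 82.6% and 79.4% lower.

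**Figure D2:**
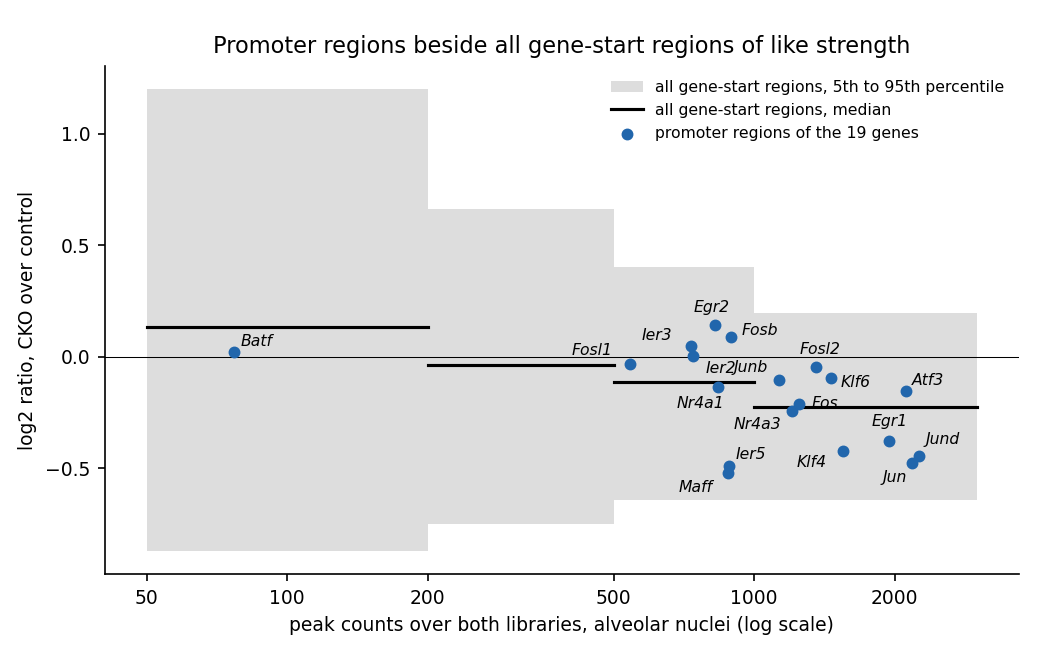
Log2 ratio of CKO over control (y axis) against total counts over both libraries in alveolar nuclei (x axis, log scale) for the 19 promoter regions, drawn over the median (line) and the 5th to 95th percentile (grey) of all gene-start regions in bins of total counts. All 19 lie within the grey range, with Maff at -0.52 and Ier5 at -0.49 the lowest.

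The share of counts that fell at gene starts also differed: 48.1% in CKO-labelled and 53.4% in control alveolar nuclei, and likewise 56.0% and 62.9% in leukocytes. Its part in the promoter ratios was not tested. Scaling by the median of ratios over shared regions instead lowers every alveolar log2 ratio by 0.16, the median of all regions. The Jun, Jund, Maff, Ier5 and Klf4 promoters then pass 1.5-fold lower, at -0.64, -0.61, -0.69, -0.65 and -0.59. Of all regions, 12.7% were past it lower with that scaling, and the share among gene starts alone was not taken. Every gene-start region shifts by the same amount, so each promoter keeps its place among its like.

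The sums were ordered by distance from the gene. Over the 46 regions within 10 kb and away from gene starts, the summed level was 865 CPM in CKO-labelled and 853 CPM in control alveolar nuclei (log2 ratio 0.02, -0.04 to 0.08). Over the 359 regions at 10 to 100 kb it was 3727 and 3424 CPM (0.12, 0.09 to 0.15). At 121 starts of other genes inside the windows it was 3802 and 3908 CPM (-0.04, -0.07 to -0.01). Promoters were thus lower, near regions level and far regions slightly higher in the CKO-labelled library, and all 544 regions together were level, at 9347 and 9315 CPM (0.00, -0.01 to 0.02). The genome showed a like split: single regions had a median log2 ratio of -0.09 at gene starts and 0.27 away from them. For members these medians were -0.03 and 0.23. Away from gene starts the median over all regions fell from 0.38 at 50 to 200 counts to -0.18 at 1000 or more. The part of strength in the ordering was not tested.

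Region by region, 463 of the 544 shared regions had at least 50 counts in alveolar nuclei, 84 of them were past 1.5-fold higher in the CKO-labelled library and 24 past it lower. Over all 69161 regions tested 25.0% were past it higher and 7.21% lower, and the members' 18.1% and 5.18% were below both shares. The members' median log2 ratio was 0.13, against 0.16 over all regions. With the median of ratios the split was 54 higher and 48 lower, beside 18.2% and 12.7% of all regions. Of 327 members away from gene starts, 71 were higher and 20 lower (30.3% and 6.65% of all such regions), and of 136 at gene starts, 13 and 4 (7.82% and 9.01%). Most of these regions are weak: with at least 200 counts, 20 were higher and 9 lower of 266. Of all gene-start regions with 200 to 500 counts, 6.95% were higher and 10.1% lower. Away from gene starts it was 11.1% and 7.10% at those counts. In the stronger bins of both kinds, 0.228% to 1.61% of all regions were higher and 6.48% to 8.10% lower. By the interval, 73 members (15.8%) lay wholly above 0 and 41 (8.86%) wholly below, against 14.6% and 9.76% of all regions. In leukocytes of the CKO-labelled library, 33 of the 84 higher members had a higher level than in its alveolar nuclei (28.1% of all such regions). So did 13 of the 24 lower ones (29.4%) and 52.7% of the members between (32.8%).

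**Figure D3:**
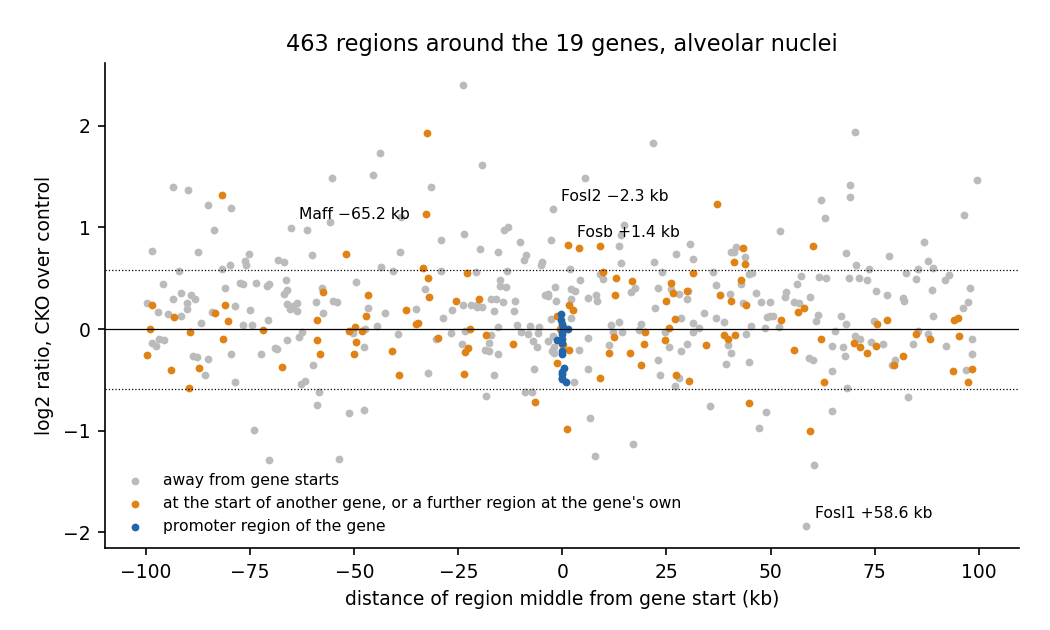
Log2 ratio of CKO over control in alveolar nuclei (y axis) for the 463 shared regions with at least 50 counts against their distance from the gene start in kb (x axis), marked as promoters of the 19 genes (18), other gene starts (118) and regions away from gene starts (327). The promoters lie in a narrow band near or below 0, and the lowest point is the region 58.6 kb from the Fosl1 start.

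The window holds many other genes, and the rule's gene was the nearest gene for 143 of the 711 regions, while 125 regions lay at the start of another gene. Per gene, the windows held between 15 regions (Klf4) and 51 (Ier2). Summed over each window, the lowest was Batf, at 203 CPM in CKO-labelled and 244 CPM in control nuclei (log2 ratio -0.27, -0.39 to -0.15). The highest was Klf6, at 320 and 275 CPM (0.22, 0.11 to 0.32), and Fosl2 was next (0.21, 0.08 to 0.34). Nr4a3 (-0.19), Jun (-0.17) and Ier5 (-0.16) were also lower. All 19 windows lay within the 5th to 95th percentile of 22961 genes (-0.35 to 0.36).

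The lowest single region stood far apart from the rest. It lies 58.6 kb from the Fosl1 start (chr19:5505883-5506786), 2.55 kb from 1700020D05Rik and 4.15 kb from Snx32, which are its nearest genes. It had 120 counts in CKO-labelled and 388 in control alveolar nuclei, or 11.0 and 42.3 CPM (log2 ratio -1.94, -2.38 to -1.51). It was lower in each alveolar class: 10.5 and 39.3 CPM in AT2-like, 7.57 and 51.8 CPM in transitional-like, 16.6 and 51.7 CPM in cluster 4 nuclei. In leukocytes it had 14.3 and 36.3 CPM (-1.35, -2.47 to -0.03).

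A second region of this kind lies at the start of Flvcr2, a haem and choline transporter gene, 59.5 kb from Batf (chr12:85745768-85746620). It had 22.9 CPM in CKO-labelled and 45.8 CPM in control alveolar nuclei (log2 ratio -0.998, -1.33 to -0.67), and 17.4 and 36.3 CPM in leukocytes (-1.06, -2.16 to 0.23). Another, 17.0 kb from Batf and nearest to it (chr12:85703261-85704153), had 10.7 and 23.3 CPM in alveolar nuclei (-1.13, -1.61 to -0.65). In leukocytes that region had 13.9 and 9.08 CPM, on 72 and 4 counts (0.62, -1.34 to 3.72). The other low regions were smaller in size: 35.7 and 58.8 CPM at the D730003I15Rik start near Atf3 (-0.72), 32.7 and 50.2 CPM at -7.26 kb from Junb (-0.62), and 7.73 and 15.3 CPM at 1.19 kb from Fosl1 (-0.98).

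The highest region lies at -2.26 kb from the Fosl2 start, upstream of this Fos relative (chr5:32133142-32133944), with 20.5 CPM in CKO-labelled and 9.05 CPM in control alveolar nuclei (log2 ratio 1.18, 0.66 to 1.73). It was higher in AT2-like nuclei, at 19.1 and 7.94 CPM, and in transitional-like nuclei, at 29.5 and 9.80 CPM, while cluster 4 had 14.3 and 17.2 CPM. Leukocytes of the CKO-labelled library had 33.0 CPM there and those of the control library 27.2 CPM. Next came the region within Fosb described above, a region at -65.2 kb from Maff (chr15:79280923-79281859), 4.12 kb from Baiap2l2, with 17.9 and 8.94 CPM (1.00, 0.46 to 1.56), and 1 at 3.89 kb from Jund at the Gm16486 start, with 31.3 and 17.99 CPM (0.80, 0.41 to 1.20). The next 2 are at 14.1 kb from Fosb, with 17.6 and 9.27 CPM (0.92), and at 14.7 kb from Ier3, with 13.1 and 6.43 CPM (1.02).

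Among regions called as a peak in 1 library alone, the strongest in the CKO-labelled library were at -20.1 kb from Maff (186 counts in alveolar nuclei), 3.73 kb from Jun (123), 4.09 kb from Fos (114) and 2.13 kb from Klf6 (93). The strongest in the control library were at 15.4 kb from Ier3, at the Tubb5 start (140), 51.6 kb from Atf3 (127), -90.7 kb from Jund, at the Ssbp4 start (124), and 48.3 kb from Atf3 (95). Both Atf3 regions lie near Fam71a, at 1.599 and 4.94 kb, and 111 and 85 of their counts came from AT2-like nuclei. Without a peak call there is no count, so these values say nothing of the level in the other library.

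Within each alveolar class the promoters summed to a lower level in the CKO-labelled library. The 18 promoters summed to 963 CPM in CKO-labelled and 1144 CPM in control AT2-like nuclei (log2 ratio -0.25), 952 and 1079 CPM in transitional-like nuclei (-0.18) and 929 and 1114 CPM in cluster 4 (-0.26). The share of counts at all gene starts was also lower in each class. It was 47.9% and 53.5% in AT2-like nuclei, 48.7% and 54.1% in transitional-like nuclei and 47.8% and 51.8% in cluster 4. Its part in the promoter sums was not tested. Within cluster 0 alone, where 1214 CKO-labelled nuclei stood against 155 control ones, the sum was 962 and 1036 CPM (-0.11, -0.26 to 0.05), less than counting error. In that cluster the ratios had both signs. The Jun promoter had 100 and 131 CPM (-0.39, -0.83 to 0.08) and Klf4 had 64.0 and 99.97 CPM (-0.64, -1.16 to -0.09), while Fosb had 41.6 and 25.7 CPM (0.70, -0.25 to 1.83), Egr2 43.8 and 27.0 CPM (0.70, -0.23 to 1.79) and Nr4a1 43.5 and 27.0 CPM (0.69, -0.24 to 1.78). The interval of every promoter but Klf4 included 0 there.

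The Jun promoter had 99.3 CPM in CKO-labelled and 137 CPM in control AT2-like nuclei, 83.3 and 106 CPM in transitional-like nuclei, and 81.6 and 89.8 CPM in cluster 4. Its log2 ratios of -0.47, -0.34 and -0.14 were not tested against each other. The Maff promoter was at 33.6 and 50.8 CPM in AT2-like nuclei (-0.59), 49.8 and 55.3 CPM in transitional-like nuclei, and 29.95 and 64.0 CPM in cluster 4 (log2 ratio -1.09, -1.88 to -0.29). It was the only 1 of 18 promoters past 1.5-fold in AT2-like nuclei, where 7.31% of all gene-start regions were past it higher and 10.9% lower. In transitional-like nuclei 3 promoters were past it on at least 50 counts (Ier5 lower, at -0.61, and Fosb and Ier3 higher), beside 8.24% of gene-start regions higher and 14.4% lower. In cluster 4 it was 3, all lower (Maff, Ier5 and Fos), beside 12.1% higher and 15.5% lower. Ier5 had 24.0 and 54.1 CPM there (-1.18, -2.05 to -0.29) and Fos 53.5 and 84.9 CPM (-0.67, -1.30 to -0.01). Fosb had 49.0 and 28.0 CPM in transitional-like nuclei (0.81, 0.06 to 1.61), and Ier3 had 37.9 and 24.5 CPM (0.63).

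Counted over regions, AT2-like nuclei had 80 members past 1.5-fold higher and 21 lower of 402 (20.8% and 9.19% of all regions). Transitional-like nuclei had 38 and 18 of 229 (13.2% and 13.6%), and cluster 4 had 20 and 35 of 179 (14.4% and 16.2%). In AT2-like nuclei 19.9% of members were higher, near the share of all regions, and 5.22% lower, below it. The regions that led in AT2-like nuclei were mostly those named above, with 4 more higher ones at starts or flanks of neighbours. These were at 9.11 kb from Fosb (Gm26802 start), 22.97 and 12.99 CPM, at 9.75 kb from Fosl1 (Ccdc85b start), 37.7 and 23.8 CPM, at 12.98 kb from Fosl1 (Fibp start), 23.5 and 13.7 CPM, and at -95.9 kb from Ier3, 29.9 and 18.2 CPM. Among regions with at least 200 counts in the class, the lowest in transitional-like nuclei and in cluster 4 was at a Mast3 start, 93.8 kb from Jund. It had 90.1 and 132 CPM in transitional-like nuclei (-0.55, -0.95 to -0.14) and 75.1 and 133 CPM in cluster 4 (-0.82, -1.34 to -0.30).

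The spread of promoter levels over cell types was narrow at some genes and wide at others, where the lowest class held few counts. In the CKO-labelled library, over 11 classes of at least 30 nuclei, the highest level was under 2 times the lowest at 7 of 19 promoters and at least 4 times the lowest at 7 others (Fosl1, Fosl2, Atf3, Batf, Maff, Ier3 and Klf6). It was 1.73 times the lowest at the Ier2 promoter, 1.77 times at Nr4a1, 1.79 times at Egr1 and 1.90 times at Jun (137 CPM in B-like and 72.1 CPM in fibroblast-like nuclei). Batf had the widest range, at 44.1 CPM in B-like and 33.1 CPM in T and NK-like nuclei and 1.38 CPM, or 3 counts, in cluster 4. Ier3 was highest in neutrophil-like nuclei, at 81.9 CPM, and lowest in dendritic-like ones, at 11.6 CPM. Klf6 was also highest in neutrophil-like nuclei, at 163 CPM, and Atf3 in ciliated-like nuclei, at 137 CPM. Several of these classes hold under 100 nuclei, so their levels rest on few counts. At the 7 promoters with a range of at least 4 times, the lowest level rested on 2 to 13 counts. The share of all gene-start regions with such a range was not taken.

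**Figure D4:**
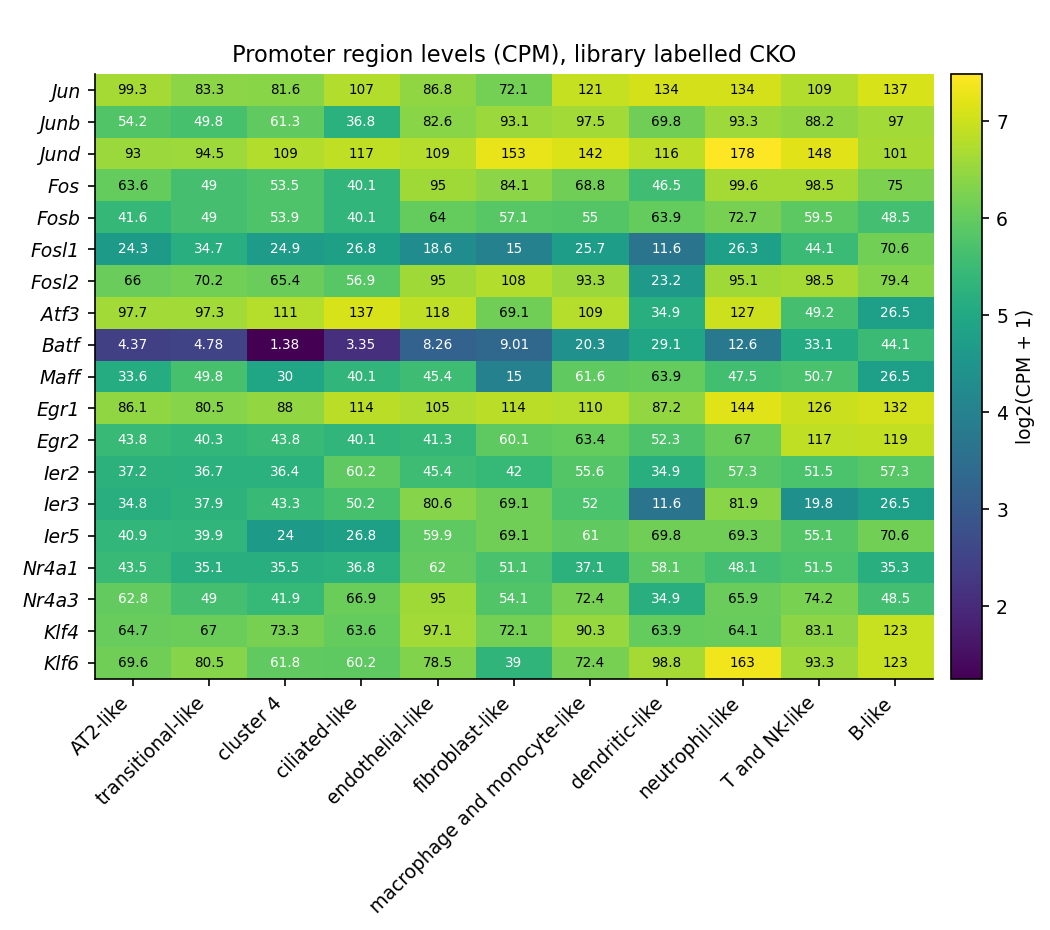
Level of each of the 19 promoter regions (rows) in 11 nuclear classes of the CKO-labelled library (columns), as log2(CPM + 1) in colour. Jun, Egr1, Ier2 and Nr4a1 differ by 1.90-fold or less between classes, while Batf is low in all 3 alveolar classes and high in B-like and T and NK-like ones.

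Most member regions that differed between cell classes lay away from gene starts. A region was called where the classes differed at least 2-fold in the same direction in both libraries. Alveolar nuclei exceeded leukocytes at 24 of 242 members and fell below them at 5, against 21.0% and 0.860% of 23252 regions. With the median of ratios the split was 12 and 20, beside 10.7% and 3.26% of all regions. At gene starts it was 2 and 0 of 112 members (6.70% and 0.616%), and away from them 22 and 5 of 130 (36.7% and 1.13%). The members' own shares over all regions were 9.92% and 2.07%.

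Between alveolar classes, few members differed. Transitional-like nuclei were past 2-fold above AT2-like nuclei at 0 of 210 members and below at 5 (0.613% and 3.67% of all regions), and cluster 4 was above at 1 of 202 and below at 4 (0.321% and 3.34%). The clearest is at 39.4 kb from Jund (chr8:70737872-70738779), 14.3 kb from Pde4c, a cAMP phosphodiesterase gene. In the CKO-labelled library it had 10.4 CPM in transitional-like, 19.4 CPM in cluster 4 and 39.6 CPM in AT2-like nuclei, and 6.18 CPM in leukocytes. In the control library it had 15.4, 17.2 and 43.3 CPM in the same alveolar classes and 9.08 CPM in leukocytes. It was thus most open in AT2-like nuclei of both libraries, with similar levels in each.

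The region at the Pde4c start itself, 24.7 kb from Jund, had 18.7 CPM in transitional-like and 38.0 CPM in AT2-like nuclei labelled CKO, and 16.1 and 35.6 CPM in control ones. A region at 85.3 kb from Nr4a3 (chr4:48130013-48130927), 5.55 kb from Stx17, had 5.58 and 20.1 CPM in the CKO-labelled library and 5.60 and 16.7 CPM in the control library. Both were lower in transitional-like than in AT2-like nuclei. At -13.4 kb from Ier3, its nearest gene (chr17:35807789-35808717), the levels were 8.37 CPM in transitional-like, 7.37 CPM in cluster 4 and 20.5 CPM in AT2-like nuclei labelled CKO, and 2.80, 4.92 and 13.9 CPM in control ones. At -23.5 kb from Jun, at the start of the divergent noncoding gene Junos (chr4:95075333-95076155), cluster 4 had 6.45 CPM and AT2-like nuclei 27.8 CPM in the CKO-labelled library, and 9.84 and 32.5 CPM in the control library. A region 6.19 kb inside Nr4a1 completed the set lower in transitional-like nuclei, with 6.38 CPM in transitional-like and 15.04 CPM in AT2-like nuclei labelled CKO, and 7.70 and 18.3 CPM in control ones. At -59.2 kb from Klf6, cluster 4 had 7.37 CPM and AT2-like nuclei 22.2 CPM in the CKO-labelled library, and 2.46 and 17.3 CPM in the control library.

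The only member past 2-fold above AT2-like nuclei was at -32.0 kb from Fosb, at the D830036C21Rik start (chr7:19341605-19342484). In the CKO-labelled library it had 24.9 CPM in cluster 4, 24.7 CPM in transitional-like and 10.8 CPM in AT2-like nuclei. In the control library it had 44.3, 10.5 and 10.5 CPM. Cluster 4 was thus above AT2-like nuclei in both libraries, and how the transitional-like level differed between the libraries was not tested.

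**Figure D5:**
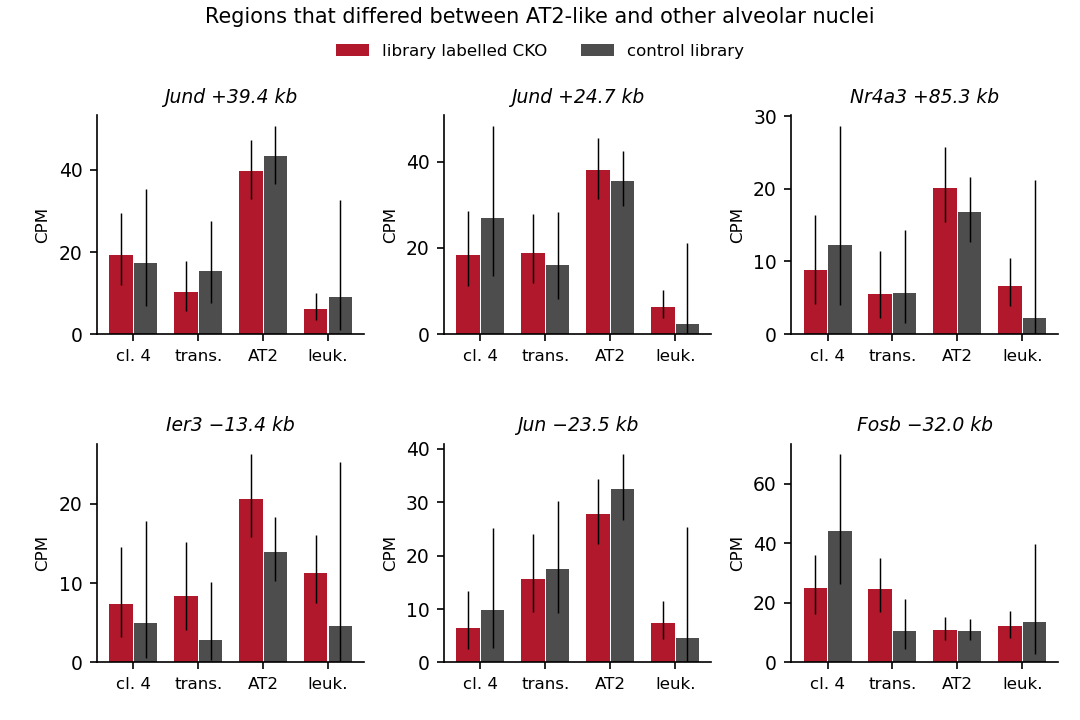
Level in CPM (y axis, from 0) of regions that differed 2-fold between alveolar classes, in cluster 4, transitional-like, AT2-like and leukocyte nuclei (x axis) of the CKO-labelled and the control library, with 95% counting intervals. Most are highest in AT2-like nuclei of both libraries, and the region at -32.0 kb from Fosb is highest in cluster 4.

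In leukocytes, 93 members were past 1.5-fold higher in the CKO-labelled library and 40 lower of 301 (30.4% and 18.3% of all regions). The makeup of this class differed, with 491 neutrophil-like nuclei labelled CKO and 2 in the control library. The highest was at -5.01 kb from Fos (chr12:85468421-85469334), with 43.1 CPM from 223 counts in CKO-labelled and 9.08 CPM from 4 counts in control leukocytes (log2 ratio 2.25, 0.36 to 5.31). Of the 223 counts, 113 were in neutrophil-like nuclei, at 64.7 CPM. The Ier3 promoter had 51.2 CPM in CKO-labelled and 15.9 CPM in control leukocytes (1.69, 0.21 to 3.76; 265 and 7 counts). The Klf4 promoter was lower, at 80.2 and 150 CPM (-0.90, -1.44 to -0.33).

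Among the promoters of related genes, most levels in alveolar nuclei also differed by less than 1.5-fold. Of 49 genes (other bZIP partners and regulators, other immediate early genes, and kinases, phosphatases and feedback genes upstream), 48 had a measured promoter, and of 47 with at least 50 counts, 1 was past 1.5-fold higher and 5 lower (7.82% and 9.01% of all gene-start regions). The median log2 ratio was -0.20, against -0.12 for the 18 promoters and -0.09 for all regions at gene starts, a difference that was not tested. The lists' medians were -0.32 for 13 bZIP partners and regulators, -0.18 for 18 immediate early genes and -0.22 for 17 upstream and feedback genes. The lowest was Batf3, a dendritic cell factor, at 9.21 CPM in CKO-labelled and 19.5 CPM in control nuclei (-1.08). The highest was Egr4, at 3.87 and 1.42 CPM from 42 and 13 counts (1.45).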

How the data were processed

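Each library's matrix holds raw counts as deposited (UMIs per gene and transposition counts per peak, called per library), per the file headers. Per the submitters' processing notes, Cell Ranger ARC 2.0.1, Seurat 4.1.0 and Signac 1.6.0 were used. Among genome builds they list GRCm39 and GRCm38 without a role. The gene starts in the files match GRCm38. Of the nonzero peak values, 84.6% in the CKO-labelled and 81.6% in the control library were even, so intervals (conditional binomial, 95%) use halved counts.

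Kept nuclei had 1000 to 100000 peak counts, 500 to 25000 UMIs, 300 genes or more, and under 20% of UMIs from mitochondrial genes. Doublet calling marked 0 CKO-labelled and 12 control nuclei, so doublets were in effect not removed. RNA was clustered in scanpy 1.11.5 (2000 variable genes, scaled, 30 components, 15 neighbours, Leiden resolution 0.6) without integration. Clusters were named by the mean log2 fold of marker lists over the unweighted mean of the other clusters (at least 0.3, with 3 detected markers). The scaling and this score were chosen after a first clustering left a large control AT2 cluster unnamed.

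Peaks of both libraries overlapping by at least 1 base made shared regions. Each library's counts over its own peaks were summed per class and scaled to the class's total in shared regions. Gene starts are the 5′ ends of the gene rows by RefSeq strand (for Egr1, Ier2 and Fosl1, which have no strand here, the row's middle). Positive distances lie downstream, or for these 3 genes toward higher coordinates. Regions named are the 6 highest and 6 lowest per comparison by the interval bound nearest 0, with at least 200 counts, and where fewer qualify fewer are named. Promoters are always named. The Atf3 promoter at its RefSeq start, the regions within Fosb and at the Junb start, the motifs TGACATCA and TGACGT, the interval counts and the leukocyte values were added after seeing the data. The members and lists were chosen with earlier results of these data known. Class contrasts needed 100 counts per library. Calculations were tested on simulated data. Of 2000 regions simulated at the depth of the alveolar nuclei without a difference, 260 still passed 1.5-fold. Further tools were Python 3.11.15, leidenalg 0.10.2, numpy 2.4.6, scipy 1.17.1, pandas 2.3.3 and matplotlib 3.10.9.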

Additional observations from a re-analysis of the deposited data

Results flagged for a closer look

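Regions were singled out where they passed 1.5-fold in opposite directions in different alveolar classes. Of 29 member regions past 1.5-fold in at least 2 classes, 21 had the same direction and 8 opposite ones, beside 17.4% opposite among all 2869 such regions. The difference between classes was not tested for any of them, and most rest on few counts. All log2 ratios are CKO over control, with CKO-labelled and control counts in parentheses.

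The region at 96.3 kb from Fos had log2 ratios of 1.05 in transitional-like nuclei (69 and 19 counts) and -1.84 in cluster 4 (32 and 43). At -32.0 kb from Fosb they were 1.24 in transitional-like nuclei (62 and 15) and -0.83 in cluster 4 (54 and 36). At -17.7 kb from Fosl1 they were -0.75 in AT2-like nuclei (100 and 189) and 0.59 in transitional-like nuclei (90 and 34). At 1.53 kb from Maff they were 0.75 in transitional-like nuclei (74 and 25) and -0.72 in cluster 4 (55 and 34).

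At 26.5 kb from Ier2 the ratios were -0.72 in transitional-like nuclei (33 and 31 counts) and 1.70 in cluster 4 (52 and 6). At 16.7 kb from Ier3 they were 0.65 in AT2-like nuclei (167 and 119) and -0.63 in cluster 4 (43 and 25). At -23.9 kb from Klf6 they were 0.60 in AT2-like nuclei (80 and 59) and -0.81 in transitional-like nuclei (52 and 52). At -16.0 kb from Klf6 they were 0.67 in transitional-like nuclei (98 and 35) and -0.78 in cluster 4 (53 and 34). In 4 of the 8 regions the ratio was above 0 in transitional-like nuclei and below 0 in cluster 4. The 8 were picked for opposite directions, and the share with this order among all 498 such regions was not taken.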

How the results depend on the processing

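Of 104 counts of member regions under other settings, 63 stayed within 1.5 times their main value. The rest moved further. Members past 1.5-fold numbered 108 in alveolar nuclei, 101 in AT2-like nuclei, 56 in transitional-like nuclei and 55 in cluster 4. In that order, they numbered 29, 21, 0 and 4 with at least 200 counts, 59, 59, 33 and 35 in a window of 50 kb, and 17, 20, 15 and 15 in one of 10 kb. They numbered 59, 48, 21 and 18 with a peak counted once per nucleus, 65, 61, 27 and 21 with counts turned into fragments (chosen after seeing the data), and 34, 41, 15 and 15 at 2-fold. With at least 20 counts, AT2-like nuclei had 154, transitional-like nuclei 133 and cluster 4 131. Without other genes' starts, transitional-like nuclei had 37 and cluster 4 33, and with the 19 genes left out of clustering cluster 4 had 35. Members past 2-fold between classes were 5 for cluster 4 over AT2-like (8 at 1.5-fold, 1 at resolution 1.0, 1 without the 19 genes), 5 for transitional-like over AT2-like (15 at 1.5-fold, 21 with no mitochondrial limit, 19 with no filter, 8 at resolution 0.3) and 29 for alveolar over leukocyte nuclei (71, 53 and 61 under the first 3 of these, 14 at resolution 1.0). Of 342 promoter ratios, 336 stayed within their main interval. The exceptions were Maff at -0.19 with no mitochondrial limit and -0.16 with no filter, Ier2 at 0.46 with no filter, and Jun at -0.28, Fosb at 0.51 and Ier5 at -0.85 without clusters over 80% from 1 library. Beyond scaling, the causes were not tested. Too few nuclei were left without such clusters for AT2-like nuclei and for all class contrasts, and the class that cluster 4 forms was absent at resolution 0.3 and with looser filters and had 69 control nuclei, too few for the library comparison, at resolution 1.0. No paired analysis was possible because each genotype is 1 library. Depth limits the weak regions: 463 of the 544 shared regions reached 50 counts.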
